A study of Mus musculus and Rattus norvegicus with 36 samples.

Results

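The heat shock and cold-inducible genes described here are 10 genes, 8 of the heat shock group (Hspb1, Hsph1, Hspa8, Hspa4l, Hsp90aa1, Dnajb1, Dnaja1 and Hspb8) and 2 cold-inducible ones (Cirbp and Rbm3), of 19926 gene symbols that the mouse and rat arrays hold alone on a probe set. They were chosen by their symbols after measured values of these same arrays had been seen, mainly Hspb1 in Se-deficient mouse liver and Hsph1 and Cirbp in rat liver at 2 μg Se/g diet. All probe sets annotated to the symbols were taken, 29 of 45037 on the mouse array and 17 of 31042 on the rat array. Of these, 27 in the mouse (9 genes) and 14 in the rat (8 genes) carry 1 symbol. The others also carry a second symbol and are given apart, as Rbm3-ps with Rbm3 in the mouse, and Hsp90aa1-ps17 with Hsp90aa1 and Haus8l2 with Hspa8 in the rat.

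The study fed weanling male mice for 35 days and weanling male rats for 28 days a Se-deficient torula yeast diet, alone or with Se added as selenite, and hybridized RNA of 3 animals per diet and tissue to 1 array each (36 arrays). Mouse liver and kidney came from mice with no added Se (Se-deficient), with 0.05 μg Se/g diet (marginal) and with 0.2 μg Se/g diet (adequate). Rat liver came from 2 studies. In study 1 rats had 0.08 or 0.8 μg Se/g diet, and in study 2 they were Se-deficient or had 0.24 (adequate), 2 or 5 μg Se/g diet. Livers were perfused with ice-cold KCl. The mice were of a predominantly C57 black colony and the rats were Holtzman rats. In whole tissue, fewer cells of a type and less RNA per cell cannot be told apart.

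Heat shock proteins are chaperones that bind unfolded proteins and hold, refold or hand them on for degradation. Their genes share control by heat shock factor 1 (Hsf1), which binds repeats of the heat shock element when unfolded protein builds up. Hspa8 is the constitutive Hsp70 of the cytosol, Dnajb1 and Dnaja1 are Hsp40 partners that bring it substrate, and Hsph1 (Hsp110) and Hspa4l are exchange factors that release its nucleotide. Hsp90aa1 is the inducible Hsp90, while Hspb1 (Hsp27 in human, Hsp25 in mouse) and Hspb8 are small heat shock proteins that hold unfolded protein without using ATP. Cirbp and Rbm3 are RNA-binding proteins whose messenger RNA goes up when cells are mildly cooled and goes down with warming, the opposite of the heat shock genes.

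Promoter sequence (RefSeq, mouse build GRCm38.p6) was at hand for 7 of the 10 genes, and the 250 bases before the first listed start are shown for the 3 genes on which the results turn. The capitals in Hspb1 and Hsph1 mark a heat shock element (GAANNTTC or TTCNNGAA, both strands), and those in Cirbp mark a mild-cold element (TCCCCGCC, both strands).
Hspb1 (chr5:135887669-135887918, plus strand): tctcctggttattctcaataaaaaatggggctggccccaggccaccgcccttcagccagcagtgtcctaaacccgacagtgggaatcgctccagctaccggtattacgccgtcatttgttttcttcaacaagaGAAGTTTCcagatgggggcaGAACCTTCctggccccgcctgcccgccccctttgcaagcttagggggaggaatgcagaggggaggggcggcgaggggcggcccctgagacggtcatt
Hsph1 (chr5:149636337-149636586, minus strand): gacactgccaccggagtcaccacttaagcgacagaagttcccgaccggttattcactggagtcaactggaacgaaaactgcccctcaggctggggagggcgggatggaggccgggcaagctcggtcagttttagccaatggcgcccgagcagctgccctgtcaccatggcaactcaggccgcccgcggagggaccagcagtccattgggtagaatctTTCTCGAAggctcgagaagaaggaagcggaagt
Cirbp (chr10:80167589-80167838, plus strand): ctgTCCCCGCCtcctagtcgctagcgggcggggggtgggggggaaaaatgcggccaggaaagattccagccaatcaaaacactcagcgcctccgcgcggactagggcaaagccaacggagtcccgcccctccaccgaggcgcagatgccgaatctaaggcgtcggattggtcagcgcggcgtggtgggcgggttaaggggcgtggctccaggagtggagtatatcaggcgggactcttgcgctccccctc
The Hspb1 window holds 2 heat shock elements, which start 117 and 97 bases before the start of the gene, and the Hsph1 window holds 1, at 33 bases. The Cirbp window holds the mild-cold element 247 bases before the start. Of the 6 heat shock genes with a window, 3 held a heat shock element at 1 start or more (Hspb1, Hsph1 and Dnaja1). It occurs in 3932 of all 27025 genes counted in this way, and in 12.8% of all 32851 windows of this length. The mild-cold element was found for the first listed start of Cirbp but not for its second, and for other starts of Dnaja1. It occurs in 1452 of the 27025 genes and in 4.64% of all windows. A match of letters is a description and not a measured site.

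Hepatocyte markers averaged 13.3 to 13.8 in liver of both species on the log2 scale. Markers of kidney tubule and glomerulus averaged 12.6 to 12.9 in mouse kidney. The library of replicate 1 at 2 μg Se/g diet stood apart in the rat, with 1964 probe sets more than 2-fold from the mean at 0.24 μg Se/g diet, against 136 and 147 for replicates 2 and 3. Its Lys and Phe spike-in controls were also the lowest in the rat (5.14, with 5.49 for replicate 2 and 5.75 to 9.67 on all other rat arrays). The rat diets of study 1 had spike-in levels of 9.22 to 9.67 and the rats of study 2 of 5.14 to 6.16, so that levels are not compared between the studies by a test. The part of the spike-in level in the results was not tested beyond the fit that holds it as a covariate.

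Hspb1 rose in Se-deficient mouse liver. Its values were 9.40, 9.49 and 9.13 in Se-deficient liver, 8.35, 8.66 and 8.56 at 0.05 μg Se/g diet and 8.56, 8.38 and 8.28 at 0.2 μg Se/g diet (log2 expression). All 3 Se-deficient mice lay above all 6 mice given Se, and the 2 Se-fed groups overlapped. The mean was 9.34 ± 0.18 in Se-deficient liver and 8.41 ± 0.15 at 0.2 μg Se/g diet (SD, n = 3 each), a log2 change of 0.93 ± 0.12 (SE), or 1.91-fold. The second probe set of the gene gave 9.17, 8.75 and 8.25 in Se-deficient liver, against 7.53, 7.28 and 7.46 at 0.2 μg Se/g diet, with a change of 1.30 ± 0.21 that did not pass the threshold of an adjusted p under 0.05 (limma, Benjamini-Hochberg over all probe sets). As these values chose the gene, they are a description and no p is given. Hspb1 was 1 of 9 member genes called here, and 0.0222% of all probe sets were called. The call depended on single arrays. It was lost without Se-deficient replicate 1 or 2, and without replicate 2 or 3 at 0.2 μg Se/g diet, while the change stayed between 0.86 and 1.03 on leaving out any one of the 6 arrays.

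**Figure D1:**
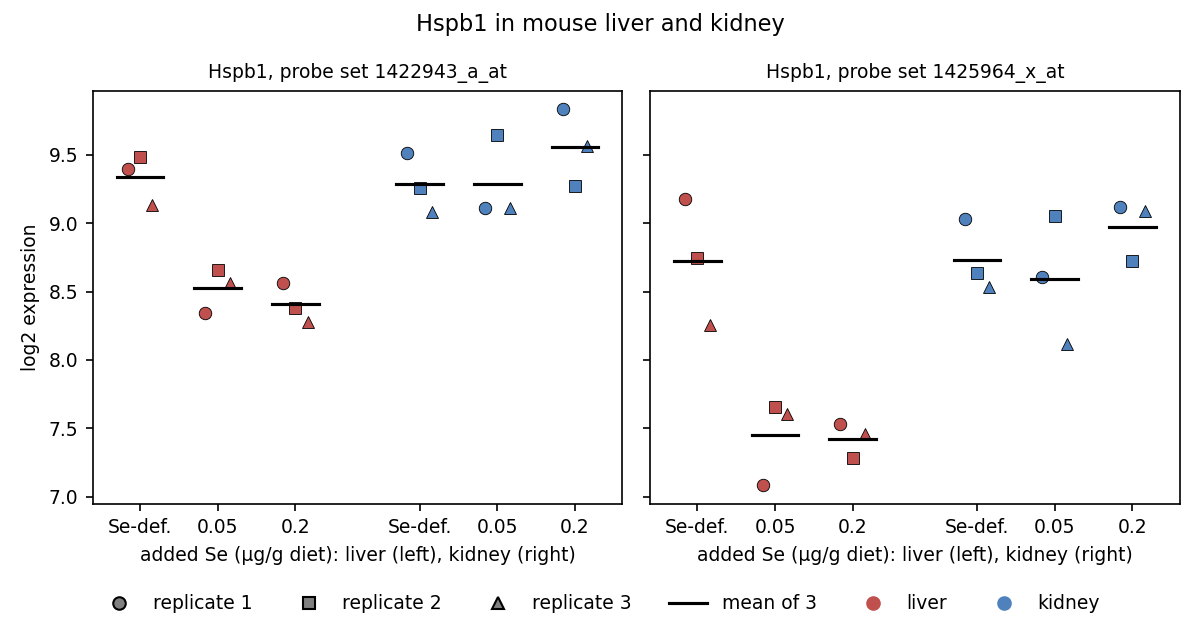
Hspb1 on both mouse probe sets, as log2 expression (vertical axis) for each array by added Se in μg/g diet (horizontal axis, liver left and kidney right, black lines the means of 3 arrays). On the first probe set the 3 Se-deficient livers sit between 9.13 and 9.49 and all other livers between 8.28 and 8.66, while the kidney groups overlap. Liver and kidney arrays were normalized separately, so the heights of the tissues are not comparable.

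Hspb1 was not called in Se-deficient kidney or rat liver. Se-deficient mouse kidneys had 9.51, 9.26 and 9.08, marginal ones (0.05 μg) 9.11, 9.65 and 9.11, and adequate ones (0.2 μg) 9.83, 9.27 and 9.56. These groups overlapped, and the log2 change in Se deficiency was -0.27 ± 0.18 (limma, adjusted p = 0.897). The response in liver was 1.20 ± 0.23 above that in kidney on the log2 scale. This difference used the values that chose the gene, so that no p is given. Among the 9 genes, 0 were called for this difference by limma, and 0.00222% of all probe sets were. At an unadjusted p under 0.05 lay 1 of the 9 genes and 5.79% of all probe sets. In rat liver Se-deficient rats had 7.48, 6.48 and 6.32, against 7.03, 7.98 and 6.90 at 0.24 μg Se/g diet, again with overlap (log2 change -0.54 ± 0.37, adjusted p = 0.999).

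The other heat shock genes moved little in Se-deficient mouse liver. Log2 changes ran from -0.11 for Dnaja1 to 0.28 ± 0.14 for Hsp90aa1, with a median of 0.09 over the 9 genes including Hspb1, and -0.02 over all probe sets. Besides Hspb1, Hsp90aa1 had 11.46, 11.78 and 11.42 in Se-deficient liver, against 11.09, 11.39 and 11.34 at 0.2 μg Se/g diet. In Hspa4l the Se-deficient livers had 7.82, 7.85 and 7.743, against 7.61, 7.742 and 7.63 in the adequate ones, so that its groups nearly touched. These 2 and Hspb1 lay higher without overlap, Dnaja1 lay lower without overlap, and 7.61% of all probe sets had no overlap in this comparison in either direction. The probe sets of Hspa4l did not all go one way. A pair of its lower probe sets gave -0.26 ± 0.09 and -0.10 ± 0.12, against 0.14 ± 0.10 for the one with the highest mean. Hspb8 differed by -0.04 to 0.02 and Hsph1 by 0.09 and 0.12 over their probe sets, within their SE. In Hspa8 the probe set with the highest mean changed by 0.05 ± 0.15, while of its others one lay higher (0.37 ± 0.21) and one lower (-0.15 ± 0.11) without overlap. Cirbp changed by 0.09 ± 0.24, and the higher probe set annotated to both Rbm3 and Rbm3-ps by 0.07 ± 0.15.

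Marginal Se gave no call of a member in either mouse tissue by limma, and 0 genes had an unadjusted p under 0.05 (1.95% of all probe sets in liver and 2.91% in kidney had). At 0.05 against 0.2 μg Se/g diet in liver, 0 of 9 genes were called and 0 had no overlap, where 0% of all probe sets were called and 5.46% had no overlap. The largest change in size was that of Dnaja1, -0.15 ± 0.09 on the probe set with the highest mean and -0.32 ± 0.11, without overlap, on another (limma, adjusted p = 1 for each). In kidney 0 of 9 genes were called and 0 had no overlap, with 0% of all probe sets called and 6.48% without overlap. Changes ran from -0.27 for Hspb1 to 0.10 for Hspb8. Both comparisons share the 0.2 μg Se/g arrays with those of Se deficiency.

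Se-deficient kidney had no member called either, and 0 genes had an unadjusted p under 0.05 in limma (5.42% of all probe sets had). There 0 of 9 genes were called and 0 lay without overlap, against 0.00666% and 8.66% of all probe sets. The highest change was that of Hsp90aa1, with 11.11, 11.87 and 11.62 in Se-deficient kidney and 11.12, 11.31 and 11.53 at 0.2 μg Se/g diet (log2 change 0.21 ± 0.19, adjusted p = 0.917). Another probe set of the gene lay without overlap at 11.47, 11.50 and 11.31 in Se deficiency, against 10.88, 11.23 and 11.19 (log2 change 0.33 ± 0.11, adjusted p = 0.893). Hspb8 had 5.16 to 5.46 in the 9 kidneys on the probe set that was highest in liver, below the median of each kidney array, and its diet differences there were -0.02 and 0.03.

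In rat liver at 2 μg Se/g diet, Hsph1 lay higher and Cirbp lower than at 0.24 μg Se/g diet. Hsph1 had 11.48, 11.06 and 11.17 at 2 μg Se/g diet, against 10.47, 10.38 and 10.82 at 0.24 μg Se/g diet (log2 change 0.68 ± 0.14, 1.60-fold). Its other probe set changed by 0.75 ± 0.15, with 9.85, 9.41 and 9.48 against 8.79, 8.76 and 8.92. Cirbp had 6.95, 6.95 and 7.11 at 2 μg Se/g diet, against 7.90, 7.93 and 7.78 at 0.24 μg Se/g diet (log2 change -0.87 ± 0.12). Its level at 0.24 μg Se/g diet was 1.83 times that at 2 μg Se/g diet. All 3 Cirbp probe sets went the same way without overlap, the other 2 by -0.59 ± 0.12 and -0.52 ± 0.17. The groups did not overlap on any of these 5 probe sets. The paper lists Cirbp as significantly lower at this dose on its arrays, and Hsph1 as nearly significantly higher. It also reports that its qRT-PCR did not bear out a fall of Cirbp at high Se.

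None of these passed the threshold in the fit used here, which for Cirbp differs from the array result of the paper. At 2 μg Se/g diet 0 of 8 genes and 0.00322% of all probe sets were called. At an unadjusted p under 0.05 in limma lay 2 of the 8 genes, and 4762 of 31042 probe sets (15.3%). Without overlap lay 2 of 8 genes, Hsph1 and Cirbp, and 12.8% of all probe sets. These values chose both genes, so no p is given. With limma's array weights, whose estimate stopped before it converged on these 12 arrays, 3 genes were called (Hsph1, Cirbp and Rbm3), and Cirbp alone was called with all rat arrays in one fit. Without replicate 3 at 2 μg Se/g diet, Hsph1 and Cirbp were called. Without replicates 1 and 2, the pair of libraries with the lowest spike-in level, the remaining rat, assumed to vary like the other groups, gave 0.61 for Hsph1 and -0.77 for Cirbp. With the spike-in level as a covariate the changes were 0.54 and -0.70.

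The partners of these genes were less uniform at 2 μg Se/g diet. The probe set annotated to both Hsp90aa1 and Hsp90aa1-ps17 with the higher level had 13.06, 12.76 and 12.82, against 12.48, 12.47 and 12.44 at 0.24 μg Se/g diet (log2 change 0.42 ± 0.10), without overlap. The one annotated to both Hspa8 and Haus8l2 changed by 0.38 ± 0.16 with overlap. Rbm3, the other cold-inducible gene, had 7.82, 7.90 and 8.37, against 8.41, 8.81 and 8.06, so that the groups overlapped (log2 change -0.40 ± 0.21). Without replicates 1 and 2 the Rbm3 change was -0.05. Dnajb1 spread widely at 2 μg Se/g diet, with 9.56, 9.96 and 10.59, against 9.84, 9.65 and 9.87 (0.25 ± 0.25). Hspa4l, Hspb1, Dnaja1 and Hspb8 changed by -0.03 to 0.11.

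**Figure D2:**
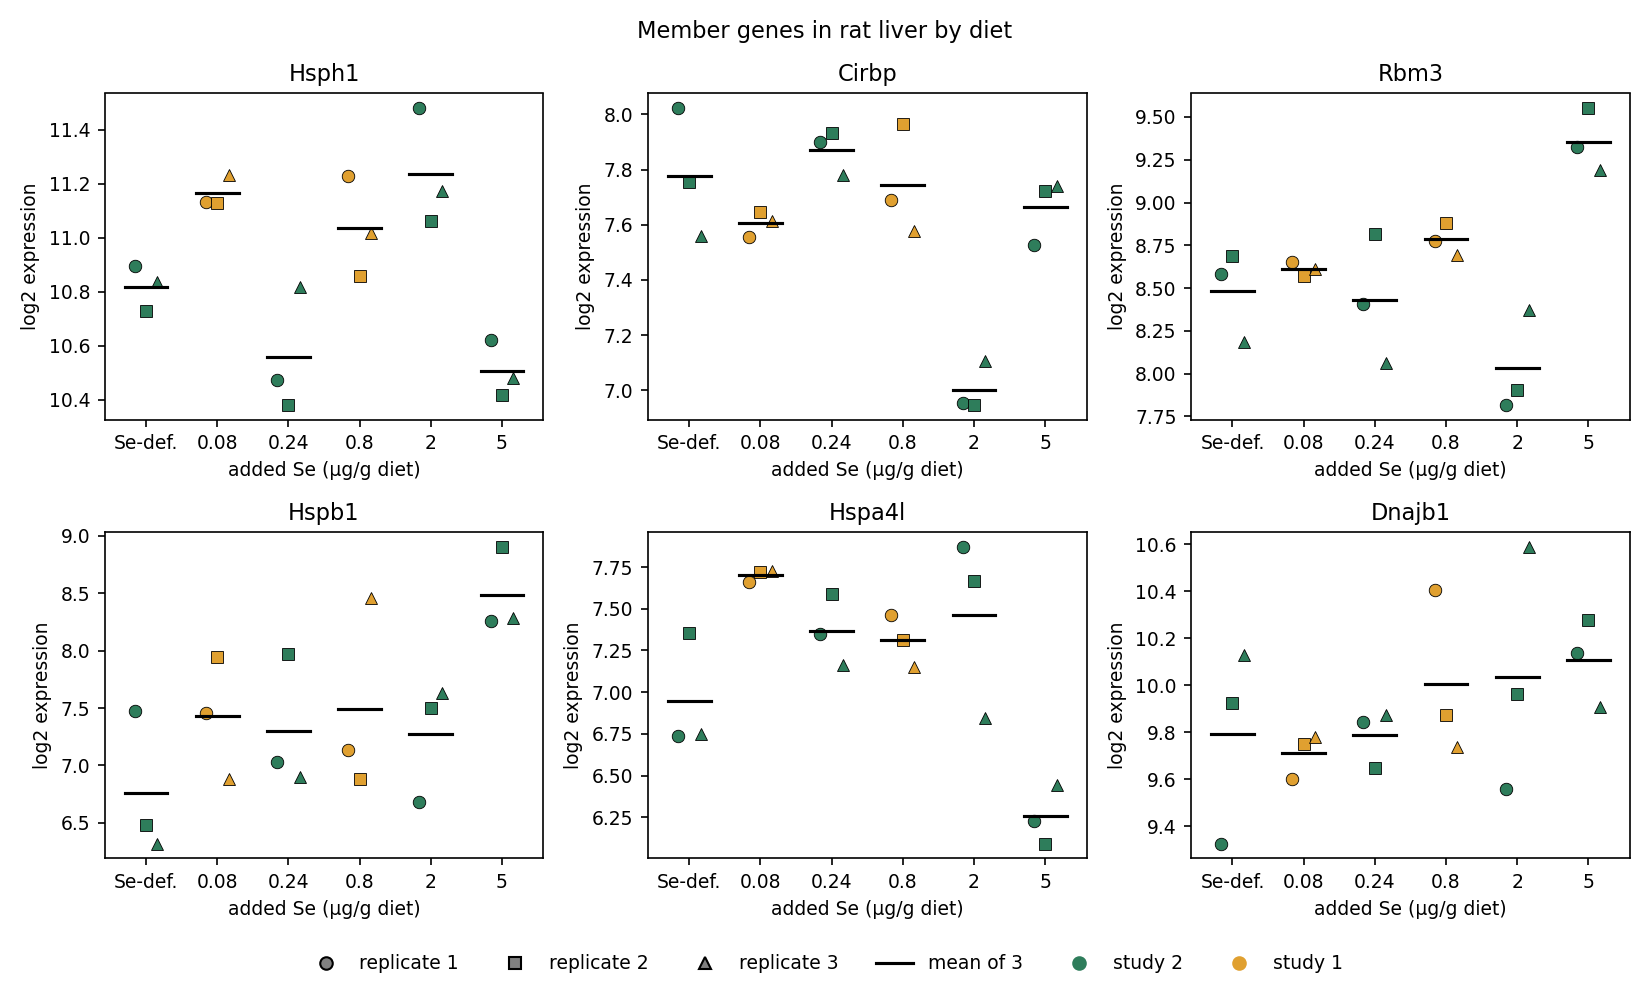
Log2 expression (vertical axes) of 6 member genes in single rat livers by added Se in μg/g diet (horizontal axes, in rising order), with black lines for means of 3 rats. Green marks study 2 and orange study 1, which were processed separately. The 3 rats fed 2 μg were lowest in Cirbp (6.95 to 7.11, others 7.53 or above), and the 3 rats fed 5 μg were highest in Rbm3 (9.19 to 9.55, others 8.88 or below).

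Other members moved at 5 μg Se/g diet, the highest dose fed. The paper reports reduced growth and raised plasma markers of liver damage in these rats. It holds that many transcripts changed at this dose could respond to general toxicity or caloric restriction. The part of either in the changes of the members was not tested. Rbm3 rose, with 9.32, 9.55 and 9.19 at 5 μg Se/g diet, against 8.41, 8.81 and 8.06 at 0.24 μg Se/g diet (log2 change 0.93 ± 0.21, 1.90-fold). Hspa4l fell to 6.23, 6.09 and 6.44 at 5 μg Se/g diet, against 7.35, 7.59 and 7.17 (log2 change -1.11 ± 0.25). Both were without overlap. Hspb1 had 8.26, 8.90 and 8.28, against 7.03, 7.98 and 6.90, without overlap but not called (1.18 ± 0.37). Hsph1 and Cirbp, the genes that stood out at 2 μg Se/g diet, changed by -0.05 ± 0.14 and -0.21 ± 0.12 at 5 μg Se/g diet, where Cirbp still lay without overlap at 7.53, 7.72 and 7.74, against 7.90, 7.93 and 7.78. Dnajb1 had 10.14, 10.28 and 9.91, against 9.84, 9.65 and 9.87 (0.32 ± 0.25), and Dnaja1 and Hspb8 changed by -0.02 and 0.24. The probe set annotated to both Hspa8 and Haus8l2 had 13.52, 13.31 and 13.28, against 12.90, 12.75 and 13.23, without overlap. Those shared by Hsp90aa1 and Hsp90aa1-ps17 averaged 12.54 and 10.55, against 12.46 and 10.44, each with overlap.

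Of the 8 genes, 1 was called higher and 1 lower at 5 μg Se/g diet, where 2.82% of all probe sets were called, and 4 lay higher and 2 lower without overlap, where 23.6% of all probe sets had no overlap. The members were chosen with values of this comparison known, so nothing is read from these counts and no p is given. The Rbm3 call was lost with only the arrays of the 2 diets in the fit and with quantile normalization, at log2 changes of 0.93 and 0.87. On leaving out single arrays, Hspa4l was called only without replicate 3 at 5 μg Se/g diet, and Rbm3 without that array or without replicate 2 at 0.24 μg Se/g diet. Leaving out replicate 1 or 3 at 0.24, or replicate 1 or 2 at 5 μg Se/g diet, left 0 genes called. Markers of stellate cells and fibroblasts moved in the same comparison, with 4 of 8 called higher and 2 lower. Their mean per array was 8.44 to 9.04 in rats fed 5 μg, against 8.29 to 8.72 in adequate rats. Of the defining markers Col1a1 averaged 9.08 at 5 and 7.46 at 0.24 μg Se/g diet, and Lrat averaged 6.97 at 5 and 9.08 at 0.24 μg Se/g diet. Other cell type markers moved too. Clec4f of Kupffer cells was called lower (1 of 4 markers), with a mean of 9.82 at 5 and 11.60 at 0.24 μg Se/g diet. Krt19 of bile duct was called higher (1 of 4), at 8.71 and 6.08, and so was Pecam1 of endothelium (1 of 4), at 8.70 and 7.78. The other endothelial markers averaged lower, with Kdr at 11.15 and 11.45, Stab2 at 9.59 and 9.94 and Lyve1 at 10.59 and 10.73. The median log2 change of the endothelial list was -0.22. Of the blood and immune markers 0 of 6 were called (median log2 change 0.49), and of the hepatocyte markers 0 of 7. Their part in the change of the members was not tested.

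Cirbp and Rbm3 differed in the order of their diet means. In Cirbp the diets ranked from the lowest mean as 2, 0.08, 5, 0.8, Se-deficient and 0.24, and in Rbm3 as 2, 0.24, Se-deficient, 0.08, 0.8 and 5. Rbm3 at 2 μg Se/g diet overlapped with 0.24 and with Se deficiency. For Hsph1 the order was 5, 0.24, Se-deficient, 0.8, 0.08 and 2, in which each diet overlapped with its neighbours. The 6 rats of study 1 had 10.86 to 11.23 in Hsph1, above the 10.38 to 10.82 of the adequate rats of study 2. Study and diet cannot be told apart in that difference. The levels of these orders chose part of the members and are given as a description.

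Se deficiency in rat liver gave no call among the members by limma, and 0 genes had an unadjusted p under 0.05 (3.4% of all probe sets had). Of 8 genes 0 were called and 1 lay without overlap, Hspb8, where 0.00322% of all probe sets were called and 11.6% had no overlap. Hspb8 had 10.28, 10.26 and 10.14 in Se-deficient rats, against 10.05, 9.97 and 10.01 (log2 change 0.21 ± 0.15, adjusted p = 0.999). Hsph1 had 10.89, 10.73 and 10.84, against 10.47, 10.38 and 10.82 (0.26 ± 0.14, adjusted p = 0.999), and its other probe set lay without overlap (0.39 ± 0.15). The Hsp90aa1 probe set shared with Hsp90aa1-ps17 had 12.77, 12.67 and 12.73, against 12.48, 12.47 and 12.44 (0.26 ± 0.10, adjusted p = 0.999). Cirbp changed by -0.09 ± 0.12, with -0.34 ± 0.12 and 0.09 ± 0.17 on its other probe sets, and Rbm3 by 0.06 ± 0.21. This comparison has its own treated rats but shares the 0.24 μg Se/g rats with the comparisons that chose members.

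Rat study 1 was not among the comparisons taken as having chosen the members. At 0.8 against 0.08 μg Se/g diet 0 of 8 genes were called by limma (1 at an unadjusted p under 0.05, as were 4.58% of all probe sets) and 2 had no overlap, where 0% of all probe sets were called and 9.46% had no overlap. Hspa4l had 7.47, 7.31 and 7.15 at 0.8, against 7.66, 7.72 and 7.73 at 0.08 μg Se/g diet (log2 change -0.39 ± 0.11, adjusted p = 0.967). Rbm3 had 8.78, 8.88 and 8.70, against 8.65, 8.57 and 8.61 (0.17 ± 0.10, adjusted p = 0.967). Hspa4l lay lower and Rbm3 higher, the sides on which they lay at 5 against 0.24 μg Se/g diet, but neither passed the test. Hsph1 and Cirbp changed by -0.13 ± 0.12 and 0.14 ± 0.12, each with overlap. Both probe sets shared by Hsp90aa1 and Hsp90aa1-ps17 lay lower without overlap, by -0.16 ± 0.10 and -0.40 ± 0.11 (adjusted p = 0.967 each).

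**Figure D3:**
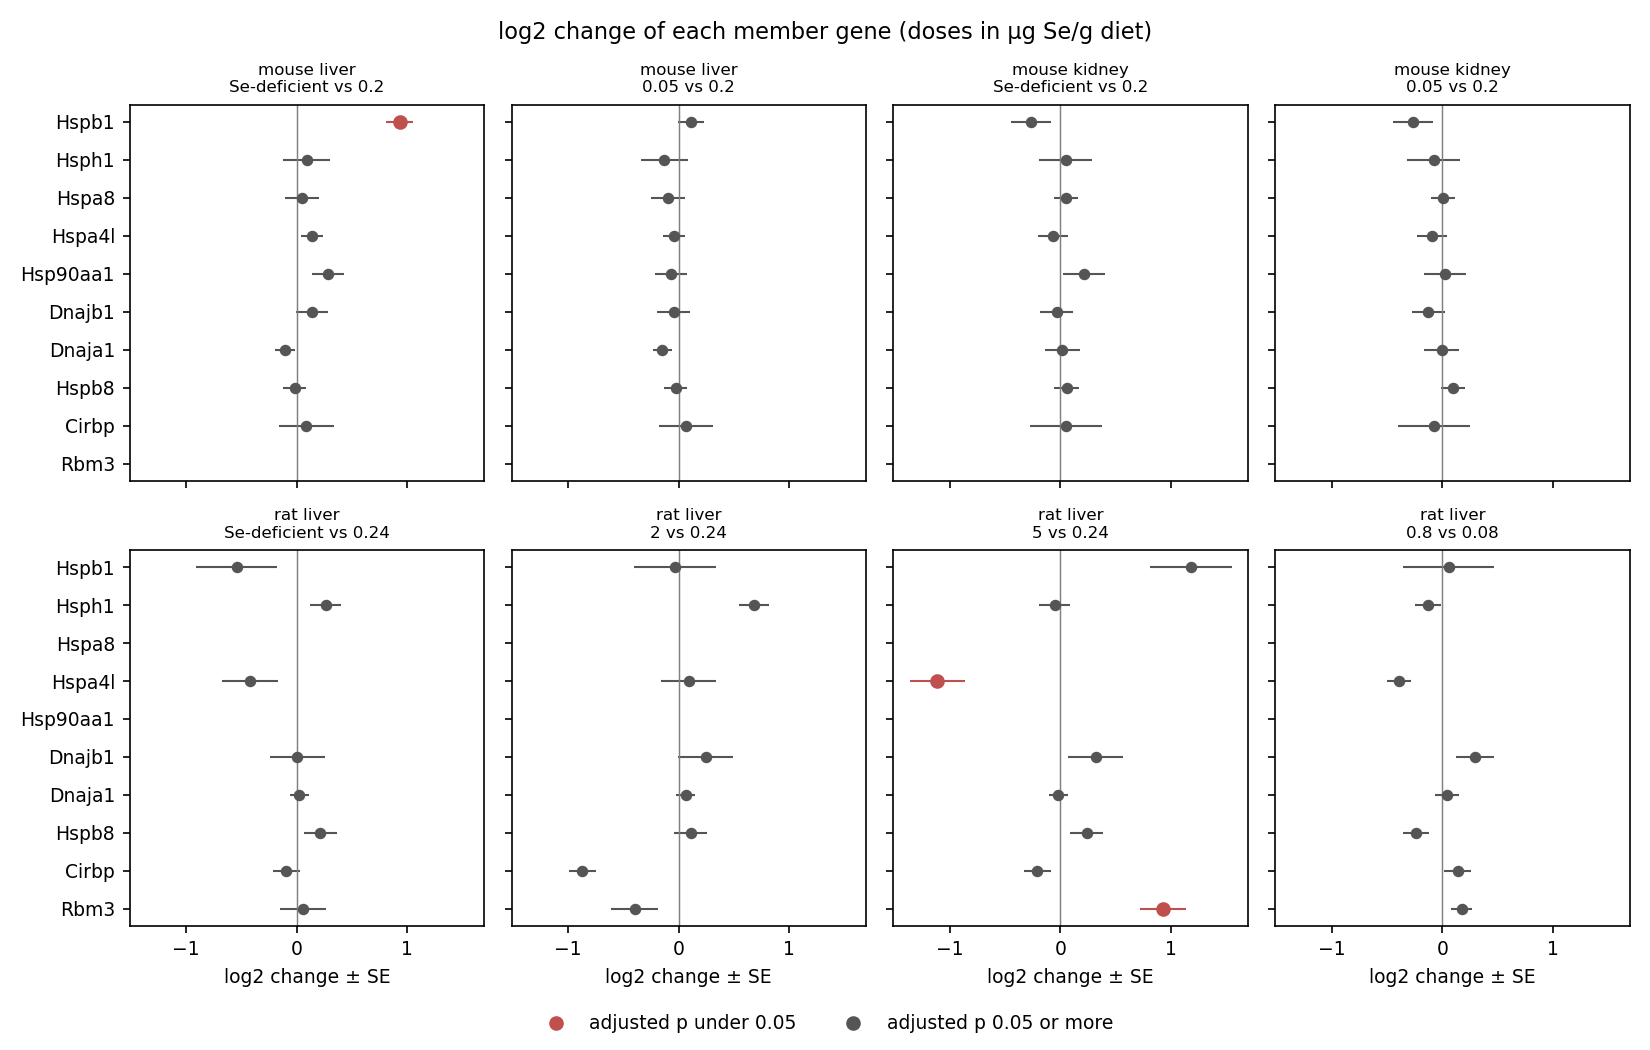
Log2 change with its SE (horizontal axes) of each member gene (rows, 1 probe set per gene) in 4 mouse and 4 rat comparisons, with red points for an adjusted p under 0.05. Genes whose probe sets carry a second symbol are left blank (Rbm3 in the mouse, Hspa8 and Hsp90aa1 in the rat). Red points are Hspb1 in Se-deficient mouse liver (0.93) and Hspa4l (-1.11) and Rbm3 (0.93) in rat liver at 5 μg Se/g diet.

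Other genes around heat shock and cold shock were read as 7 lists with 93 genes. Besides chaperones these held 4 genes of Hsf1 and its regulators and 18 other RNA-binding and cold shock domain genes. Of the 93, 83 were measured on the mouse array and 86 on the rat array, and Hsf1 was not measured in the mouse. None of the measured genes was called in any comparison of the mouse diets. In the rat none was called at 2 μg Se/g diet, in Se deficiency or at 0.8 μg Se/g diet. At 5 μg Se/g diet 3 of the 86 genes measured on the rat array rose (3.49%), near the 2.82% of all probe sets called there in either direction. Cryab, a small heat shock protein, had 9.28, 9.64 and 8.94, against 7.25, 7.63 and 7.30 at 0.24 μg Se/g diet (log2 change 1.90 ± 0.29), 1 of 7 small heat shock genes. Hspa1a, the inducible Hsp70, had 7.21, 7.81 and 7.26, against 6.10, 5.95 and 5.71 (1.51 ± 0.29), 1 of 23 in its list. Serpinh1, the collagen chaperone Hsp47 of the endoplasmic reticulum, had 10.54, 10.70 and 10.38, against 9.48, 9.49 and 9.13 (1.18 ± 0.23), 1 of 15. The 2 groups did not overlap in any of the 3 genes, and as the comparison is one of those that chose members, no p is given.

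The list medians at 5 μg Se/g diet ran from -0.00 to 0.14, against -0.03 over all probe sets, and the highest was that of the 12 chaperonin and prefoldin subunits, which fold actin and tubulin. The same 12 had a median of 0.19 in Se-deficient rat liver with 7 of 12 higher without overlap, against -0.01 over all probe sets and 11.6% without overlap in either direction. At 2 μg Se/g diet the 4 genes of Hsf1 and its regulators had a median of -0.22, against -0.02 over all probe sets. Hsf1, the shared regulator, had 7.34, 7.46 and 7.40 in rats at 5 μg Se/g diet, against 6.91, 6.95 and 7.38 (0.32 ± 0.18), and changed by -0.10 at 2 μg Se/g diet. In the mouse Hspa1b, another inducible Hsp70, changed by 0.23 ± 0.28 in Se-deficient liver and 0.00 ± 0.33 in Se-deficient kidney (limma, adjusted p = 0.932 and 1), and Hspa1a by -0.18 ± 0.15 and -0.12 ± 0.25. In rats at 2 μg Se/g diet Hspa1a had 6.04, 6.41 and 7.10, against 6.10, 5.95 and 5.71 (0.60 ± 0.29). In Se-deficient rats it averaged 6.70, without overlap (0.78 ± 0.29, limma, adjusted p = 0.999).

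Within diets, mouse arrays that were low in Hsph1 tended to be high in Cirbp. After removal of each diet mean, Pearson's r was -0.83 in the 9 mouse livers (exact permutation within diets, two-sided p = 0.0185, Spearman's rho -0.80, p = 0.0417) and -0.87 in the 9 kidneys (exact permutation p = 0.00463, rho -0.97, p = 0.00463). The kidney p is the smallest that 216 permutations can give. In the 18 rat livers r was -0.35 (permutation p = 0.190, rho -0.43, p = 0.150). In the mouse, replicate 1 was below its diet mean in Hsph1 and above it in Cirbp in all 3 diets of both tissues, and permutation within diets does not take the replicate number into account. With the mean of each number removed as well as that of each diet, a step added after seeing the data and given with no p, r was -0.56 in mouse liver and -0.72 in kidney. In the rat, with numbers taken within each study, it was -0.30. Adjusted over the 3 relations with diet means removed, Pearson's p was 0.0278, 0.0139 and 0.190, and Spearman's 0.0625, 0.0139 and 0.150. Without the 2 arrays farthest from the median of Hsph1, r was -0.71 in mouse liver, -0.72 in kidney and -0.29 in the rat. Within rat study 2 it was -0.26 and within study 1 -0.58, where the permutation p was 0.309 and the exact p 0.583. Without the 2 farthest arrays these were -0.08 and 0.19, so that the sign in study 1 rests on them. The relation also depended on the probe set. With diet means removed, the other Hsph1 probe set gave r with Cirbp of -0.77 in mouse liver, -0.51 in mouse kidney and -0.03 in rat liver (no p given).

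**Figure D4:**
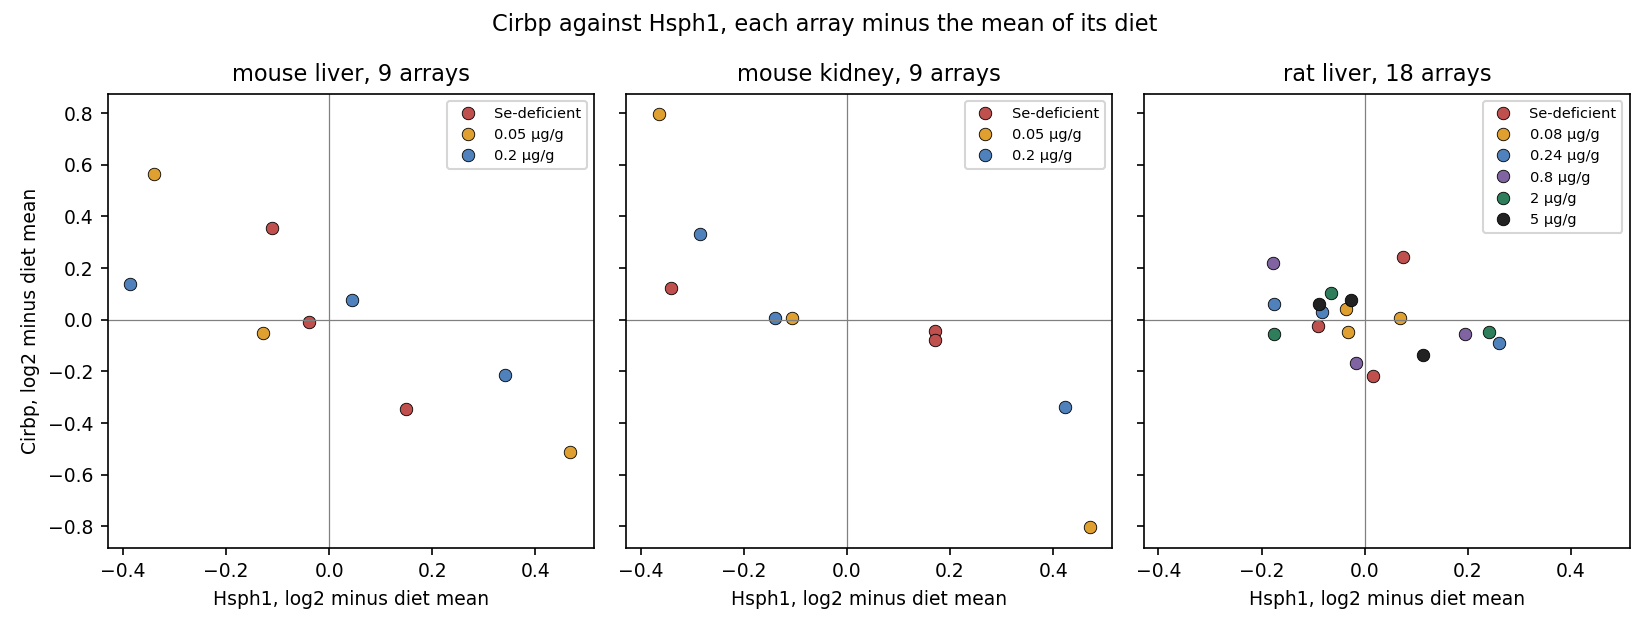
Cirbp against Hsph1, each as log2 expression minus the mean of the diet, in 9 mouse livers, 9 mouse kidneys and 18 rat livers (1 point per array, colour by diet). The points fall from upper left to lower right in both mouse tissues (r of -0.83 and -0.87) and scatter in the rat (r of -0.35).

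The mice at 0.05 μg Se/g diet showed this spread most. Their replicate 1 had 8.95 in Hsph1 and 7.70 in Cirbp in liver, replicate 2 had 9.76 and 6.63, and replicate 3 had 9.16 and 7.09. In kidney replicate 1 had 9.92 in Hsph1 and 8.28 in Cirbp, replicate 2 had 10.76 and 6.68, and replicate 3 had 10.18 and 7.49. The other genes are given as descriptions with no p. With Hsph1, r in mouse liver was 0.98 for its own second probe set, 0.73 for Hspa4l and 0.80 for Hsp90aa1 (the probe set with the highest mean of each). The probe sets of Hspa8 had 0.99, 0.98 and 0.91, but -0.62 on the lowest one. The other probe sets of Hsp90aa1 had 0.58, 0.58, 0.80 and -0.30. Not all members followed Hsph1, with 0.46 and 0.92 for Dnajb1, 0.34, 0.23 and -0.31 for Dnaja1, 0.07, -0.17 and -0.68 for Hspb8 and 0.11 for Hspb1, where the median over all probe sets was 0.13. In kidney r with Hsph1 was lower for its own second probe set, at 0.58. It was 0.72 for Hspa8 (0.83, 0.27 and -0.30 on its other probe sets) and 0.84 for Hspa4l. For Hsp90aa1 it was 0.86 (0.90, 0.79, 0.50 and -0.22 on its other probe sets) and for Hspb1 0.16, with a median of 0.11 over all probe sets. Dnaja1 had 0.88, 0.39 and 0.85 in kidney, Dnajb1 0.69 and 0.31, and Hspb8 0.73, 0.38 and 0.43. Cirbp correlated with the higher of the probe sets annotated to both Rbm3 and Rbm3-ps at 0.87 in liver and 0.89 in kidney, and with the lower one at 0.67 in liver and -0.20 in kidney. These r share the same 9 arrays. Cirbp lay at percentile 2.10 in liver and 1.09 in kidney of the r of all probe sets with Hsph1.

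Liver and kidney arrays with the same diet and number, which may be from the same mouse although the labels do not say so, deviated together in both genes. Over the 9 pairs, r between the tissues was 0.89 for Cirbp (rho 0.87) and 0.90 for Hsph1 (rho 0.82), against a median of 0.08 over all probe sets. The exact permutation p within diets was 0.0139 and 0.00926 (two-sided), and the adjusted p over all 45037 probe sets was 0.638 and 0.626, so that neither passed. In Cirbp 8 of 9 pairs and in Hsph1 7 of 9 pairs lay on the same side of their diet means. Without the 2 livers farthest from the median, r was 0.63 for Cirbp and 0.74 for Hsph1. Its other probe set gave 0.55, and the 29 probe sets of the members ranged from -0.60 to 0.90. With the mean of each number removed too, r was 0.74 for Cirbp and 0.84 for Hsph1 (added after seeing the data, no p). Over whole arrays the same-numbered liver and kidney correlated at -0.11, 0.03 and -0.06 in Se deficiency. The values were 0.21, 0.25 and 0.21 in mice fed 0.05 μg Se/g diet, and 0.24, 0.12 and 0.21 in those fed 0.2 μg Se/g diet. At 0.05 and 0.2 μg Se/g diet each liver correlated best with the kidney of its own number. As both tissues came from the same mice, the liver and kidney relations of Hsph1 with Cirbp are not independent.

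**Figure D5:**
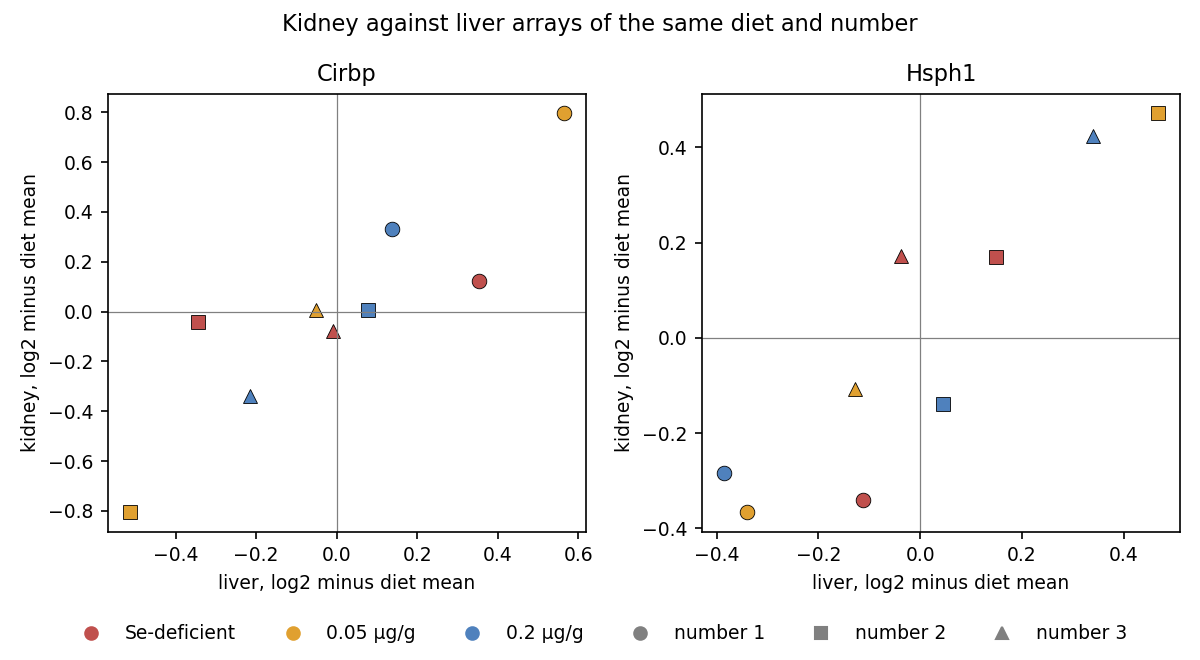
Kidney against liver for mouse arrays of the same diet and number, in log2 expression minus the diet mean, for Cirbp and Hsph1 (9 points each, colour by diet, shape by number). Points lie along the rising diagonal (r of 0.89 and 0.90), with the numbers 1 and 2 at 0.05 μg Se/g diet at opposite ends.

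The 5 probe sets most like Hsph1 over the 18 rat arrays, after removing each study's mean, were those of Slc22a23 (r 0.88), Prdm2 (0.83), Nr3c1, the glucocorticoid receptor (0.82), Plaa (0.81) and Elavl1, an RNA-binding protein (0.81). Those most like Cirbp were Rab17 on 2 probe sets (0.85 and 0.82), Mmp24 (0.85), Qng1 (0.84) and Taf11l1 (0.82). These r hold the diet differences that chose Hsph1 and Cirbp and were picked as the highest of all probe sets with 1 symbol. They are a description with no p.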

How the data were processed

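Log2 expression values per probe set of 36 Affymetrix mouse and rat arrays were used as deposited by the authors. The submitters' processing notes name GCRMA (version not given in the sources used here) and the methods of the paper name RMA. Each study and tissue was normalized by itself. There were 0 unused per-sample columns. The rat diets were assigned to studies 1 and 2 from the paper's text.

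The members, the gene lists and the tests were chosen with earlier results of these data known. Tests used limma 3.58.1 in R 4.3.3 (lmFit with 1 coefficient per diet, eBayes), with the 9 arrays of each mouse tissue, the 12 of rat study 2 and the 6 of study 1 in separate fits, and the 18 mouse arrays for the difference between tissues. P-values were adjusted (Benjamini-Hochberg) over all probe sets except the 64 mouse and 57 rat controls, without a filter, and 0.05 was the threshold. The probe set with the highest mean stands for a gene, all members are named, and from the pathway lists the called genes (up to 3 by smallest p), Hsf1, Hspa1a and Hspa1b. Next to Hsph1 and Cirbp the 5 most correlated probe sets are named. Genes with several symbols on a probe set were not counted. With 3 against 3 arrays the smallest exact p is 0.10, and their number limits the precision. The limma p-values set a difference against the spread between animals on the same diet, moderated over all probe sets. The fit of the difference between tissues treated liver and kidney arrays as independent, though both tissues came from the same mice. Correlations used Python 3.11.15 with numpy 2.4.6 and 100000 permutations within diets, or all 216. The fits were tested on simulated data. Alternatives were other sets of arrays in the fit, trend and robust, array weights, a filter at the median, quantile normalization, a replicate block, the spike-ins as a covariate, and leaving out arrays.

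Same-numbered arrays of Se-deficient and adequate mouse liver correlated in their residuals with r of 0.462, 0.105 and 0.319, all above the limit of 0.1. But number 2 of Se-deficient liver correlated better with number 3 of adequate liver, and the labels give no pairing. The fit as reported does not use the number, and a fit with it as a block is an alternative. In every other comparison of diets at least 1 number fell below that limit. Between liver and kidney all 3 numbers lay above it at 0.05 and 0.2 μg Se/g diet, but not in Se deficiency, so that the number was not taken as the mouse.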

Additional observations from a re-analysis of the deposited data

Results flagged for a closer look

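Groups hold 3 arrays each, so no single array was tested as an outlier. In 3 genes the groups went opposite ways, with every array of one comparison on one side of the control mean and every array of another on the opposite side. Hspb1 changed by 0.93 in Se-deficient mouse liver and by -0.27 in Se-deficient mouse kidney (log2). The difference of 1.20 ± 0.23 was fitted, but it rests on the values that chose the gene.

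Hspa4l changed by 0.14 in Se-deficient mouse liver and by -0.42 in Se-deficient rat liver. These are different arrays and the difference was not tested. Other Hspa4l probe sets in the mouse gave -0.26 and -0.10.

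Rbm3 changed by -0.40 at 2 and by 0.93 at 5 μg Se/g diet in the rat. Both share the 0.24 μg Se/g rats, and the difference between the doses was not tested.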

How the results depend on the processing

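The number of arrays limits what can be seen. The count of member genes called in Se-deficient mouse liver, 1 in the fit as reported, was 0 with only the 2 diets compared in the fit and with quantile normalization, and 0 to 1 on leaving out single arrays. With the replicate number as a block it was 1, and the block changed no other count of called members. At 2 μg Se/g diet in the rat the count, 0 as reported, was 1 with all rat arrays in one fit and 3 with array weights (an estimate that did not converge in rat study 2), and 0 to 2 without single arrays. At 5 μg Se/g diet the count, 2 as reported, was 1 with only the 2 diets compared and with quantile normalization, and 0 to 2 without single arrays. In the other comparisons it stayed at 0 under each alternative run. In Hspa4l the sign turned on other probe sets, with -0.26 and -0.10 in Se-deficient mouse liver and -0.22 in the difference between liver and kidney. Of 1198 single values under alternatives, 18 lost and 7 gained a call, and 151 uncalled values changed sign, each smaller than its SE in at least 1 of the fits. With the mean of each replicate number removed, an alternative chosen after seeing the data, r of Hsph1 with Cirbp was -0.56 in mouse liver, -0.72 in mouse kidney and -0.30 in rat liver. The cause was not tested.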
